A study of Homo sapiens with 18 samples.

Results

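Transcription factors that set or mark the basal and luminal lineages of the mammary epithelium, 10 in number, were examined in MCF10A cells. This is an established line of human breast epithelium that does not form tumors when unedited. The authors reported that its cells without CBFB or without RUNX1 did form tumors in mice. The 10 factors were taken by gene symbol, joined by Entrez ID, from 19401 genes listed in at least 1 of 3 tables. TP63, SOX9 and BCL11A formed the basal class (3 genes), GATA3, FOXA1, ESR1 and ELF5 the luminal class (4 genes), and TFAP2A, TFAP2C and TBX3 a class of other mammary regulators (3 genes). The series held 18 RNA-seq libraries in 5 groups: CBFB KO (3) and CBFB WT (3), and RUNX1 KO1 (4), RUNX1 KO2 (4) and RUNX1 WT (4). Each knockout arm was 1 clone, so a trait of the clone and the loss of the gene cannot be told apart, and no treatment was given beyond the medium with horse serum, insulin, EGF, hydrocortisone and cholera toxin that all groups shared. RUNX1 binds DNA, and CBFB pairs with it without touching DNA itself.

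The mammary epithelium has an outer basal layer, which contacts the basement membrane and contracts, and an inner luminal layer, which holds hormone-sensing and milk-producing cells. TP63 is the master regulator of basal epithelial cells, whereas GATA3, FOXA1 and ESR1 act together in hormone-sensing luminal cells and ELF5 drives the milk-producing alveolar lineage. Cells grown as MCF10A are known to have a mostly basal keratin pattern with some luminal genes.

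The values used here were mean normalized counts, a single mean per gene over all libraries of a table. The CBFB table pooled 6 libraries, and the RUNX1 KO1 and RUNX1 KO2 tables pooled 8 each. Knockout and WT libraries were averaged together in that value. No level in a single group, no spread between replicates and no test of knockout against WT could therefore be drawn from it, and the fold changes and p-values in the same tables were not used. The 3 tables were normalized separately. The genes' means summed to 20214423, 18050386 and 16467400 in the CBFB, KO1 and KO2 tables. CBFB itself had means of 897.1, 1058.1 and 930.9, and RUNX1 had 1606.4, 922.2 and 839.1. Being means over knockout and WT together, these did not check the labels.

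A gene missing from a table as analysed here could not be read as a gene without reads. Of 10699 genes whose KO1 mean was 100 or more, 354 were not listed in the KO2 table, whereas 0 of 10224 such genes of the KO2 table were missing from the KO1 table. KRT14, a basal keratin with a mean of 9515 in the KO1 table, was among those not listed in the KO2 table.

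Promoter sequence is shown for the 3 members that have exactly 1 window in the RefSeq set used here, to set the basal regulator TP63 beside the best measured and the least measured of the luminal members with a single window. Of the 10 members, 7 matched, with 22 windows. Each window runs from 250 bases before to 50 bases after an annotated start, on build GRCh38.p14, 5′ to 3′ on the gene's own strand, and CpG dinucleotides are in capitals. The window is at the outermost start of the annotated gene for FOXA1 and not for TP63 or ELF5, so other starts of those genes are not shown. Which start of a gene MCF10A cells use was not measured, and so the TP63 window need not be the promoter in use.
TP63, chr3:189631139-189631438, plus strand: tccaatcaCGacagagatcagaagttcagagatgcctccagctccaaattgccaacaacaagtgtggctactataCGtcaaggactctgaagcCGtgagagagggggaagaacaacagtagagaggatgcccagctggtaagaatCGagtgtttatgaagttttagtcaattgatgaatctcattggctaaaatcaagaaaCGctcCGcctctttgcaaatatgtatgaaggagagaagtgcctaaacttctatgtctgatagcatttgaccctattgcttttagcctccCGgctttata
FOXA1, chr14:37595200-37595499, minus strand: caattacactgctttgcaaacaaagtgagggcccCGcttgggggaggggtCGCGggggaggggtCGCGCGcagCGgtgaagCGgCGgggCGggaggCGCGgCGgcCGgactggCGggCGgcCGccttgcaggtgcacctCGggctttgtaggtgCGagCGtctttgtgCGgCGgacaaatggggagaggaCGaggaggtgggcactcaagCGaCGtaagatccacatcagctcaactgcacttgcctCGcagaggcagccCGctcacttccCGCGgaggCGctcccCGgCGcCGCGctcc
ELF5, chr11:34511675-34511974, minus strand: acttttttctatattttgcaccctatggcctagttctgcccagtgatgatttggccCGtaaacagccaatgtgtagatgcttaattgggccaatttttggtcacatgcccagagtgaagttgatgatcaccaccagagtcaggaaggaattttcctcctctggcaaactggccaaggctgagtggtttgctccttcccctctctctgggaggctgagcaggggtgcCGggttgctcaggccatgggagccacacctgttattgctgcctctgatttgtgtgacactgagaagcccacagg
The FOXA1 window held 34 CpG dinucleotides at 69.33% GC. The TP63 window held 7 at 43.67% GC, and the ELF5 window held 2 at 51.33% GC. The median of all 35116 windows was 14, so FOXA1 lay above it and TP63 and ELF5 below it. The hexamer TGTGGT, a core sequence bound by RUNX proteins, was searched on both strands, and no other form of the core was searched. It was in 3 of the 22 windows of the members (13.64%) and in 13.07% of all windows, and in 0 of the 3 windows shown. These are descriptions of letters in a window, and binding was not measured.

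In all, 9 of the 10 factors were measured well enough to compare, and ELF5 was not. With a mean of 10 taken as the floor, all 3 basal members, 3 of 4 luminal members and all 3 other members reached it in each of the 3 tables. Of all genes listed, 74.0% reached it in the CBFB table, against 73.6% for KO1 and 73.0% for KO2. A mean of 100 or more was reached by 10921 of 18526 genes listed in the CBFB table, 10699 of 18517 for KO1 and 10224 of 18117 for KO2. Of the members, a floor of 100 kept TP63 and SOX9 of the basal class, GATA3 and FOXA1 of the luminal class, and all 3 others, in each table. BCL11A and ESR1 therefore lay between the 2 floors.

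To compare genes with each other, each mean was divided by the length of the gene's longest transcript and scaled so that all genes of a table summed to 1000000. This per-length level has no error that could be computed, because each table gave 1 mean per gene. The KO2 table's levels were scaled over fewer genes. Genes that the KO2 table lacked carried 14.65% of the summed level of the KO1 table, and so differences between tables are given from rescaled means, not from these levels.

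**Figure D1:**
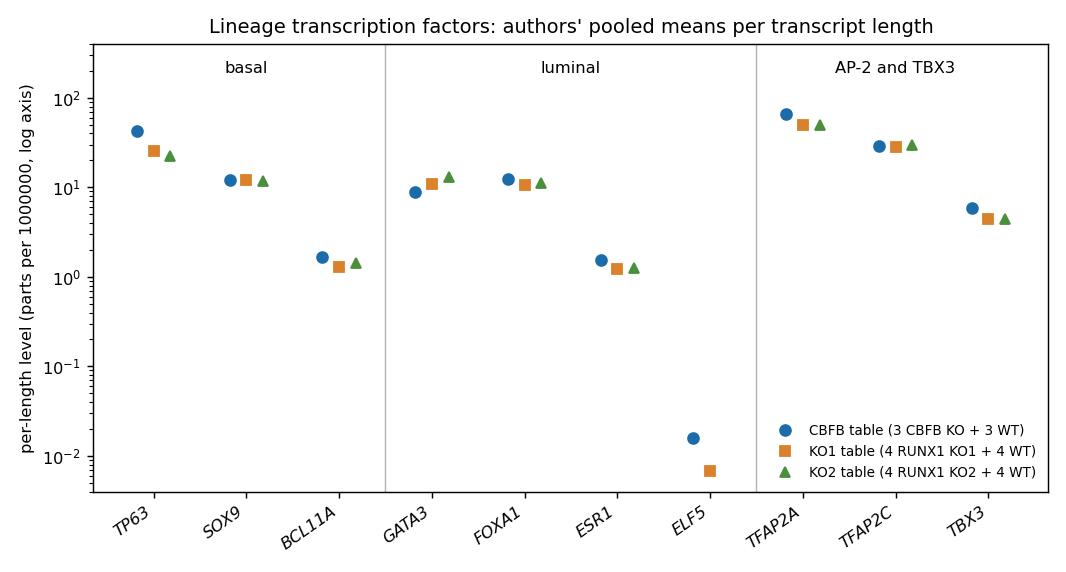
Per-length level (parts per 1000000, log axis) of the 10 transcription factors, 1 point per gene and table: circles for the CBFB table, squares for the RUNX1 KO1 table and triangles for the RUNX1 KO2 table, each a mean over knockout and WT libraries without error bars. TFAP2A is highest in every table, ELF5 is lowest where it is listed (0.01601 and 0.006864) and has no point in the KO2 table, and the basal and luminal classes overlap.

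TP63 was the highest basal member. Its mean normalized count was 1606 for CBFB, 953.2 for KO1 and 729.9 for KO2, which placed it at percentiles 84.35, 78.14 and 74.38 of all listed genes. Its per-length level was 42.32, 25.75 and 22.56. Percentiles and levels are over each table's own genes. The CBFB table held the highest mean and the KO2 table the lowest, and this order was the same after the rescaling given below.

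SOX9, a regulator of mammary progenitor cells, was of middle level. Its mean was 366.8, 361.6 and 305.4, and its per-length level was 12.06, 12.19 and 11.78. BCL11A, a zinc finger factor of mammary stem and progenitor cells, was much lower, with means of 97.22, 73.03 and 70.82 and per-length levels of 1.654, 1.274 and 1.413. The basal class thus ran over more than 10-fold between its own members in each table.

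GATA3, required for the luminal lineage, was the one luminal member whose mean was lowest in the CBFB table. Its mean was 215.9 there, and 258.2 and 270.5 in the 2 RUNX1 tables, with per-length levels of 8.941, 10.97 and 13.14. FOXA1, the factor that opens chromatin for the estrogen receptor, had means of 273.9, 230.6 and 210.2 and per-length levels of 12.38, 10.69 and 11.15. GATA3 and FOXA1 were thus both close to SOX9 on the per-length scale and near the middle of all listed genes, between percentiles 48.4 and 55.54 by mean.

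ESR1, the estrogen receptor alpha gene, was above the floor but low. Its mean was 77.63, 59.86 and 53.89, and its per-length level was 1.553, 1.228 and 1.264, next to BCL11A. In RefSeq the ESR1 locus overlaps SYNE1, which had means of 150.6, 81.15 and 78.17. Whether the counting used strand was not given in the sources used here, so the part of SYNE1 reads in the ESR1 count was not tested.

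ELF5 was too low to compare. Its mean of 0.3033 in the CBFB table stands for 1.82 normalized reads summed over 6 libraries, and its mean of 0.1268 in the KO1 table for 1.014 over 8 libraries. Such values hold about 1 or 2 reads and give no direction.

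Among the other regulators, TFAP2A, an AP-2 factor of epithelial and neural crest cells, had means of 1961, 1443 and 1248 and per-length levels of 66.23, 49.98 and 49.44. TFAP2C, its paralog active in the luminal lineage and at the estrogen receptor gene, had means of 638.8, 609.5 and 561.3 and per-length levels of 28.83, 28.2 and 29.71. TFAP2A was thus the highest member in every table. The antisense gene TFAP2A-AS1, which overlaps it, had means of 74.76, 55.55 and 47.0. TBX3, a T-box repressor needed for mammary gland formation, had means of 216.1, 158.9 and 136.9 and per-length levels of 5.918, 4.462 and 4.398.

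The order of the 10 levels was largely shared by the 3 tables. TFAP2A came first, TBX3 seventh, BCL11A eighth and ESR1 ninth in each, and ELF5 last where it was listed. TP63 was above TFAP2C in the CBFB table by 1.468-fold and below it in the KO1 and KO2 tables by 1.095- and 1.317-fold. By mean and with the median transcript length, TP63 was above TFAP2C in all 3 tables. SOX9, GATA3 and FOXA1 took positions 4 to 6 in a different order in each table, with steps between neighbours of at most 1.349-fold. Such steps could not be set against a replicate spread, so the order inside these groups is not settled. The step from TBX3 to BCL11A was larger, at 3.578-, 3.502- and 3.113-fold, but it turned with the median transcript length, which put BCL11A at position 7 and TBX3 at 8 in all 3 tables. With that length 17 of 29 positions moved, while TFAP2A stayed first and ESR1 ninth in each table.

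The 2 lineage classes did not separate by level. Without ELF5, the basal member was higher in 6 of 9 basal-luminal pairs in the CBFB and KO2 tables and in 7 of 9 in the KO1 table. TP63 was above all luminal members in each table, and BCL11A was below GATA3 and FOXA1. SOX9 was above all luminal members in the KO1 table, below FOXA1 in the CBFB table and below GATA3 in the KO2 table. With the median transcript length, SOX9 was below both FOXA1 and GATA3 in every table, and the basal member was higher in 5 of 9 pairs in each. TP63 alone made up 75.53%, 65.67% and 63.11% of the summed basal level. The summed basal level was 2.448, 1.713 and 1.399 times the summed luminal level, and without TP63 it was 0.599, 0.5881 and 0.5162 times.

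The difference between the class medians rested on ELF5 and on the length. On the log2 scale of level plus 0.1, the basal median was above the luminal median by 1.65 for CBFB and by 1.7 for KO1, over 4 listed luminal members, and by 0.08 for KO2, where 3 were listed. Without ELF5 the first 2 values were 0.43 and 0.19. With the median transcript length in place of the longest, the differences were 0.09, 0.12 and -0.93. No excess of one class over the other is therefore drawn from these medians.

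The KO1 and KO2 tables were taken to share the same 4 RUNX1 WT libraries, since the labels give no others. Their means then differ through the knockout libraries, and a ratio of the means understates the ratio of the 2 clones: the clones differ by at least as much, if the shared WT libraries keep the same scale in both tables. The KO2 means were first divided by 0.9307, the median ratio of well measured genes. Over 13123 genes that reached 10 in both tables, 0.968% differed by 1.5-fold or more in either direction. None of the 9 members listed in both did (0 of 9). The error of a ratio is unknown, and this comparison is between clones, not of knockout with WT.

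TP63 was the member that stood farthest from even. Its mean of 953.2 in the KO1 table stood against a rescaled 784.2 in the KO2 table, a log2 ratio of -0.28, and 1.814% of genes had a lower ratio. Counted in either direction, 88.74% of genes had a smaller change than TP63. Under the same assumption, the implied KO2 minus KO1 difference between the clones was -337.9 normalized counts. GATA3 lay on the other side, with 258.2 against 290.6, a log2 ratio of 0.17, and 80.54% of genes had a lower ratio than GATA3.

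The other 7 members were between these values. SOX9 had a log2 ratio of -0.14, TFAP2A and TBX3 had -0.11 each, ESR1 had -0.05, FOXA1 had -0.03, TFAP2C had -0.02 and BCL11A had 0.06. In all, 2 members were higher and 7 lower in the KO2 table, where the scale sets the median of well measured genes at 0. Basal members were on both sides (TP63 and SOX9 lower, BCL11A higher), and so were luminal members (GATA3 higher, FOXA1 and ESR1 lower). Without the rescaling all genes shifted by -0.1 on the log2 scale, and BCL11A then turned to -0.04. Scaled by the sum of all means, where the KO2 sum leaves out the genes not listed in that table, TFAP2C turned to 0.01.

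**Figure D2:**
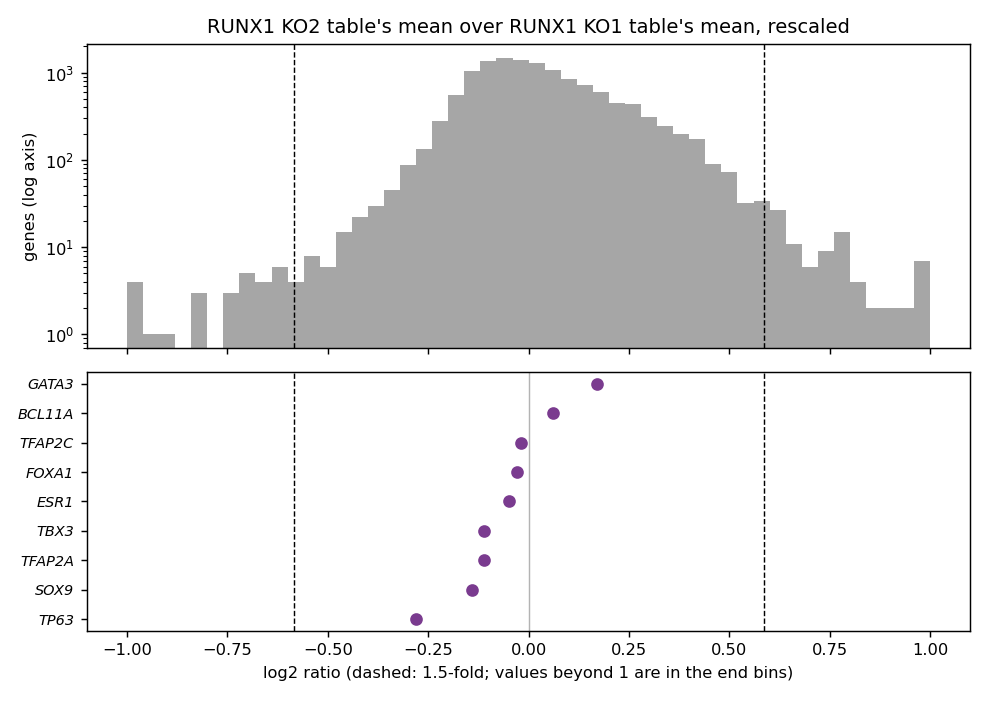
Upper panel, number of genes (log axis) by log2 ratio of the mean in the RUNX1 KO2 table, rescaled, to the mean in the RUNX1 KO1 table, for 13123 genes; lower panel, the same ratio for the 9 members listed in both. Dashed lines mark 1.5-fold. All members are inside them, from TP63 at -0.28 to GATA3 at 0.17.

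Between the CBFB experiment and the RUNX1 experiment, the 2 members farthest apart were again TP63 and GATA3, in opposite directions. Here the libraries are all different, and the experiment, the clone and the gene knocked out cannot be told apart. After division by 1.173, the CBFB table's mean of TP63 was 1370 against 953.2 in the KO1 table, a log2 ratio of 0.52. For GATA3 it was 184.1 against 258.2, a log2 ratio of -0.49. TP63 was thus higher and GATA3 lower in the CBFB table, each short of 1.5-fold. The remaining members lay between -0.21 for SOX9 and 0.21 for TFAP2A and TBX3. Of 13370 genes, 15.7% differed by 1.5-fold or more, against 0 of 9 members.

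Against the KO2 table, taken to hold the same WT libraries as the KO1 table, TP63 had a log2 ratio of 0.79 and GATA3 of -0.67. These 2 of 9 members passed 1.5-fold, beside 26.2% of 12956 genes. The members did not stand out from that background.

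The members other than TP63 were set beside their family relatives. Most of these were the leading gene of their own family, and ELF5 was not. EHF, an epithelial ETS factor related to ELF5, had per-length levels of 8.267, 25.7 and 24.9 in the CBFB, KO1 and KO2 tables, far above the 0.01601 and 0.006864 of ELF5. ELF3, the other relative, had 1.576 in the KO1 table. The ETS factor of this group that MCF10A cells carried was thus mainly EHF.

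GATA3 led the GATA factors, with GATA2 close behind at 6.693, 7.6 and 8.175, and GATA6 at 2.803 in the KO1 table. FOXA1 led the FOXA factors, with FOXA2 at 0.8445 in the KO1 table. ESR1 was above ESR2, the estrogen receptor beta gene, which had 0.1494 there. SOX9 was the SOXE factor with more than a trace of reads, since SOX10 had a mean of 0.1268 in the KO1 table and SOX8 was not listed. TFAP2A and TFAP2C were the highest AP-2 factors. TFAP2E was near the floor, with means of 6.527, 10.43 and 9.701, and TFAP2B and TFAP2D were not listed. TBX3 was above TBX2, which had 1.99. These leads were the same with the longest length, the median length and no length.

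For BCL11A the lead depended on the length. Its paralog BCL11B had per-length levels of 3.484, 1.943 and 1.819 and was above BCL11A with the longest transcript and by mean, and below it with the median length.

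**Figure D3:**
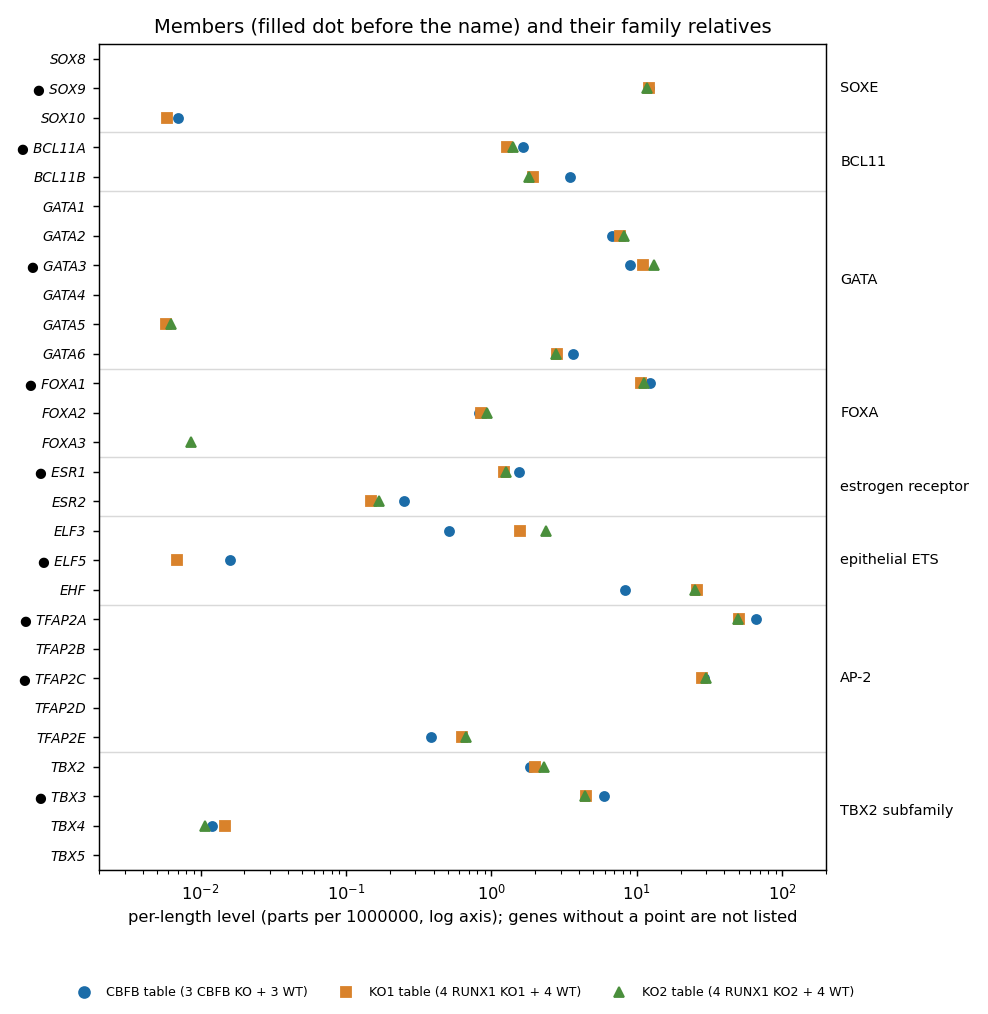
Per-length level (parts per 1000000, log axis) of the members other than TP63, marked by a filled dot before the name, and of their family relatives, grouped by family, in the CBFB (circles), RUNX1 KO1 (squares) and RUNX1 KO2 (triangles) tables, as means over all libraries of a table. EHF, at 8.267 or more, stands far above ELF5, and genes without a point are not listed.

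Genes known to act with or below the members were read from fixed lists. The floor was reached by 74.0%, 73.6% and 73.0% of all genes listed in the CBFB, KO1 and KO2 tables. The counts below are a description beside that share, and activity of the factors was not tested. All 10 TP63 targets of the list were above the floor in the CBFB and KO1 tables and 9 of 9 listed in the KO2 table, with KRT5, the basal keratin, at a level of 5328 in the KO1 table. For ELF5, the milk protein genes CSN2, CSN3 and LALBA were not listed in any table, and WAP, also in the list, has no functional human gene. For ESR1, 3 of 5 targets were above the floor: XBP1 at a level of 97.98, MYB at 3.283 and GREB1 at 0.4253 in the KO1 table, while PGR and TFF1 were not listed. Of the GATA3 partners, LDB1 (47.79), LMO4 (12.03) and ZFPM1 (1.746) were above the floor in the KO1 table and ZFPM2 was not. All 5 AP-2 partners were above it there, led by CITED4 at 54.51 and KCTD1 at 32.12.

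Markers of basal cells were high, and part of the luminal markers were present too. All 10 basal markers were above the floor in the CBFB and KO1 tables and 9 in the KO2 table, where KRT14 was not listed. The lists share genes, so their counts are not separate observations. KRT5, KRT14, ITGB4 and LAMB3 are also in the list of TP63 targets, and PGR, TFF1 and XBP1 are both hormone-sensing markers and ESR1 targets. Of all genes listed, 74.0%, 73.6% and 73.0% reached the floor in the CBFB, KO1 and KO2 tables. Of the 10 luminal markers, 7 were above the floor in each table. Since that share counts listed genes only, the listed markers are the ones to set beside it. These were 7 of 10 for CBFB, which is under the share, and 7 of 9 for KO1 and 7 of 8 for KO2, which are over it. No excess or lack is drawn from so few genes. In the KO1 table KRT18 was at 875.1, CD24 at 500.6 and KRT8 at 412.2 per-length level. KRT19, a keratin of mature luminal cells, was under the floor at a mean of 1.991, KIT of luminal progenitors was at 0.1198, and PROM1 was not listed in that table. Of 6 myoepithelial contractile markers, 5 reached it in each table, and of 5 hormone-sensing luminal markers 2 did, XBP1 and AREG (788.1 in the KO1 table). Markers of other tissues were mixed. Of these, 0 of 4 endothelial and 0 of 3 adipocyte markers were above the floor in any table. Of the fibroblast markers, 2 of 6 were above it in each table. PDGFRA had means of 633.2, 554.2 and 466.2, and COL1A1 had 284.3, 305.1 and 235.6. On the per-length scale PDGFRA had 12.45, 11.18 and 10.76. In the CBFB table this was above SOX9, GATA3 and FOXA1. In the KO1 table only SOX9 of these was higher, and in the KO2 table all 3 were. Of 5 immune markers, CD14 was above the floor in all 3 tables, with means of 142.4, 127.6 and 141.1, and LYZ in the CBFB table, with 11.72. Their part in the members' values was not tested. In bulk RNA, fewer cells of a type and less RNA per cell cannot be told apart.

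**Figure D4:**
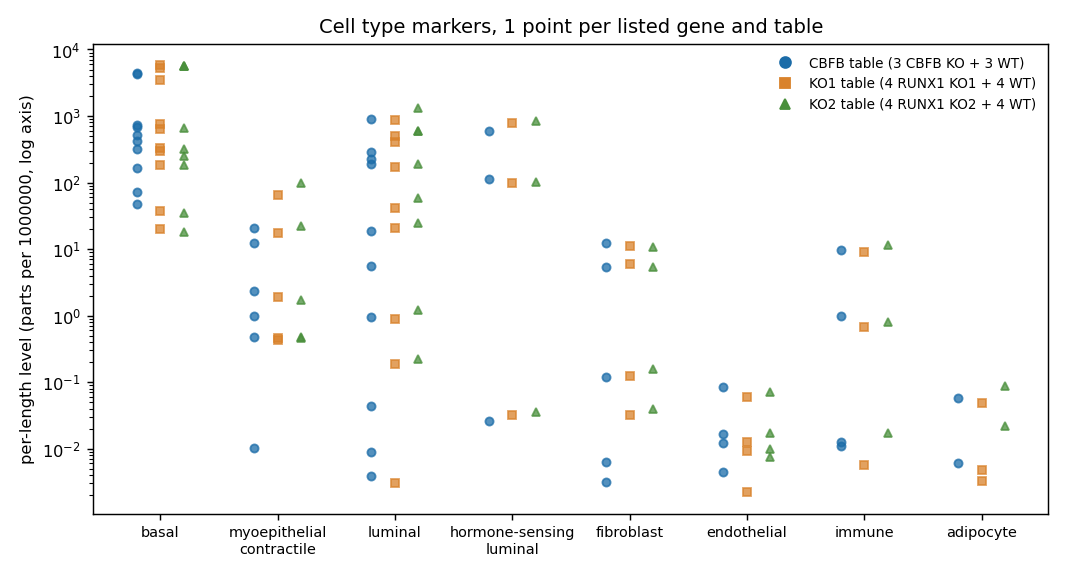
Per-length level (parts per 1000000, log axis) of cell type markers, 1 point per listed gene and table: circles for the CBFB, squares for the RUNX1 KO1 and triangles for the RUNX1 KO2 table, as means over all libraries of a table. The basal keratins KRT5, KRT6A and KRT17 lie highest in the KO1 table, luminal markers spread from KRT18 (875.1 in the KO1 table) down to KIT, and endothelial and adipocyte markers lie under 0.1.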

How the data were processed

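RNA was measured in 18 MCF10A libraries. Per the labels, the authors used Trimmomatic, STAR and DESeq2 with the hg19 build; versions and the strand setting are not given in the sources used here. Each of 3 deposited tables holds, per gene, the authors' mean normalized count over all libraries of that table (a normalized signal, pooled over knockout and WT), and the log2 fold change, its standard error, the statistic and the p-values of the authors' own comparison. These comparison columns were seen when the tables were opened and were not used; the tables as analysed here hold no value of a single sample, so no test was run. Depth is known only as summed means.

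Genes were joined by Entrez ID (pandas 2.3.3). Means were divided by the longest GENCODE 29 transcript and scaled to 1000000, with 0.1 added before log2. The floor was a mean of 10 and the fold between their means was 1.5. Genes with a mean of at least 100 set the scale between tables. This scale was tested on simulated data with shared WT libraries and every gene present in both tables. The simulation did not cover missing genes or the comparisons of the CBFB table. Promoters came from RefSeq (GRCh38.p14). Alternatives changed length, pseudocount, floor, fold and scaling. The text names all 10 members, their families (1 family comparison is not reported here), and partners, targets and markers from fixed lists. The members and lists were chosen with earlier results of these data known.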

Additional observations from a re-analysis of the deposited data

How the results depend on the processing

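The counts of members at the floor changed by no more than 1 gene a class with floors of 5, 20 and, chosen after seeing the data, 100. No member passed the fold between the KO2 and KO1 tables at a lower fold (8.21% of genes did), at 2-fold (0.0686%), without rescaling (0.678%) or with scaling by the sum of all means (1.14%). The WT libraries taken as shared pull the 2 means together, and few of all genes passed. The absence of members past the fold therefore does not show that the 2 clones were alike in them. The difference of class medians on the log2 scale, 1.65, 1.7 and 0.08 in the CBFB, KO1 and KO2 tables, moved to 0.09, 0.12 and -0.93 with the median transcript length. Without ELF5, chosen after seeing the data, the first 2 moved to 0.43 and 0.19, and with ELF5 at 0 in the KO2 table the last moved to 1.6. Without length scaling they were 1.5, 1.62 and 0.54, and a pseudocount of 1 gave 1.37, 1.37 and 0.07. Between the KO2 and KO1 tables, BCL11A turned from 0.06 to -0.04 without rescaling and TFAP2C from -0.02 to 0.01 with scaling by the sum of all means, so the count of higher and lower members depends on the scale. Each sum was over the table's own genes, and genes missing from the KO2 table were left out of its sum only. No paired analysis was possible because the tables hold no values of single samples, and for the same reason no replicate could be left out and no interval given.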
